A study of Rattus norvegicus with 6 samples.

Results

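Iron and folate are both absorbed in the first part of the small intestine, and 10 genes of these routes were examined in the intestines of male rat pups at weaning. They were taken by name, as the genes of iron reduction, import, storage and export, of their regulation and of folate uptake, and all 10 were measured among 18166 named genes. The HFD-sitagliptin group held 3 Sprague Dawley pups whose dams received a high-fat diet with oral sitagliptin, an inhibitor of dipeptidyl peptidase 4, through pregnancy and lactation. The HFD group held 3 pups whose dams received the high-fat diet alone, so the diet was common to all 6 pups. The pups were 3 weeks old, and the part of the intestine is not given in the sources used here. The treatment was given to the dams, and the labels do not tie an array to a litter. Each pup had 1 Affymetrix rat gene array, with values on a log2 scale, so that a difference of 1 is a doubling. A positive log2 fold change means a higher level in the HFD-sitagliptin group.

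Dietary iron is reduced at the brush border by the reductase encoded by *Cybrd1* and enters the enterocyte through the divalent metal transporter encoded by *Slc11a2*. It is kept in ferritin, built of the chains of *Fth1* and *Ftl1*, or leaves through ferroportin (*Slc40a1*), helped by the ferroxidase hephaestin (*Heph*). *Tfrc* encodes the transferrin receptor that takes iron from the blood side, *Hfe* a partner of that receptor that bears on hepcidin, and *Epas1* the hypoxia-inducible factor subunit that drives iron uptake genes in mouse intestine. *Slc46a1* encodes the proton-coupled folate transporter, through which folate is absorbed. In mammals, iron regulatory proteins bind an element in several of these mRNAs, which limits translation of ferritin, ferroportin and *Epas1* mRNA when iron is low and stabilizes *Tfrc* mRNA.

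The study called a gene changed where it differed at least 1.5-fold and the unadjusted p was under 0.05. In limma none of the 10 genes was past this threshold, as 2.01% of all genes were (0.705% higher and 1.3% lower), and without HFD-sitagliptin replicate 1, whose correlations with the other arrays were 0.926 to 0.94 where those among the others were 0.968 to 0.985, 0 of the 10 and 1.63% of all genes were. None had an unadjusted p under 0.05 with all 6 arrays, and the methods' t-test also put 0 of the 10 past the threshold. In limma without HFD-sitagliptin replicate 1, *Cybrd1* alone of the 10 had an unadjusted p under 0.05, as had 912 of all 18166 genes. Its log2 fold change was 0.35, under 1.5-fold. Blocked by replicate number, 3 of the 10 had an unadjusted p under 0.05, *Slc46a1*, *Epas1* and *Fth1*, of which only *Slc46a1* also differed at least 1.5-fold. In that fit 1181 of all 18166 genes had an unadjusted p under 0.05. The groups had different dams, so a replicate number does not pair their pups. Differences within a replicate number, given below, are descriptions. Of the 10, 7 had a positive and 3 a negative log2 fold change, with a median of 0.27 against 0.01 over all genes, of which 51.9% had a positive one. Adjusted p values of the 10 were at least 0.567 under the alternatives computed gene by gene. The widest differences were those of the folate transporter gene *Slc46a1*, at -1.72, and the ferroportin gene *Slc40a1*, at 1.19. *Cybrd1* was the only gene of the 10 whose groups did not overlap, and it was higher, where 11.5% of all genes were without overlap (5.97% higher and 5.54% lower).

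The arrays differed in genes of gut region and epithelium. The 10 measured markers of the proximal small intestine averaged 5.43, 7.04 and 9.17 on the log2 scale in HFD-sitagliptin replicates 1, 2 and 3, and 8.44 to 8.95 in the HFD arrays. *Lct*, the lactase gene, was at 3.75, 5.74 and 10.07 in the HFD-sitagliptin arrays and at 9.54 to 10.71 in the HFD arrays. It was lower past the threshold, as was *Slc2a2*, a glucose transporter gene. They were 20% of the list, where 1.3% of all genes were lower past it. In the methods' t-test 0 of the list were past it. The count was also 0 without HFD-sitagliptin replicate 1, HFD-sitagliptin replicate 2 or any 1 HFD array. Without HFD-sitagliptin replicate 3 it was 6. By the list means, the HFD-sitagliptin group held both the highest and the 2 lowest arrays. The 7 ileum markers had means of 5.197, 10.07 and 5.89 in HFD-sitagliptin and of 7.30, 9.28 and 7.57 in HFD, replicates 1 to 3 in turn, so that they were highest in both replicate 2 arrays. Of that list, *Fabp6* was at 13.16 and 12.62 in replicate 2 of HFD-sitagliptin and HFD, and at 3.61 to 7.36 elsewhere. *Slc10a2* was at 9.585 and 6.82 in these 2 arrays and at 3.41 to 5.12 elsewhere. The 9 colon markers averaged 6.004 in HFD-sitagliptin replicate 1 and 4.22 to 4.71 elsewhere. By their means over the 6 arrays, 7 of the 9 were not told from background. Of that list, *Car1* was at 12.41 in HFD-sitagliptin replicate 1 and at 3.41 to 4.04 elsewhere, and *Aqp8* was highest in HFD-sitagliptin replicate 3, at 7.48. The 10 brush border markers averaged 6.54 in HFD-sitagliptin replicate 1, against 10.37 to 10.82 elsewhere. There *Si* was at 2.72 and *Alpi* at 4.16, against 11.39 to 12.49 and 9.46 to 11.6 elsewhere. Not all of the list was so low in that array. *Myo7b* was at 8.66 there and at 8.99 to 9.35 elsewhere. *Mep1a*, at 9.66 there, lay among the other arrays, at 8.84 to 10.15. The 11 epithelium markers had means of 9.41 to 9.72 in HFD-sitagliptin and of 9.43 to 9.52 in HFD, and the 8 smooth muscle markers were at 9.72 in HFD-sitagliptin replicate 1 and at 8.19 to 8.495 elsewhere. Of the 14 macrophage markers, 11 were above background and 12 had a positive difference. The list averaged 5.46 to 5.94 in HFD-sitagliptin and 5.30 to 5.39 in HFD. *Spi1*, a myeloid transcription factor gene (0.59), *Itgam*, an integrin gene (0.67), and *Adgre1*, the F4/80 antigen gene (0.67), were higher past the threshold. They were 21.4% of the list, where 0.705% of all genes were higher past it. The count of this list was 2 in the methods' t-test and 1 with array weights. It was 1 to 5 with 1 array left out (1 without HFD-sitagliptin replicate 1). Without both replicate 1 or both replicate 2 arrays it was 0. Without overlap, 5 of the 14 were higher, as were 5.97% of all genes. In whole tissue, fewer cells of a type and less RNA per cell cannot be told apart. The part of gut region in the differences below was not tested.

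Promoter sequences are shown for *Slc40a1* and *Epas1*, which shared their first 3 arrays in order, for the gene with the widest range, *Slc46a1*, and for *Tfrc*, whose HFD arrays were spread the most. They run from 250 bases before to 50 after the transcription start, 5′ to 3′, as given by RefSeq for GRCr8, and they lie at chr9:55543411-55543710, minus strand for *Slc40a1*, chr6:13624680-13624979, minus strand for *Epas1*, chr10:63859301-63859600, plus strand for *Slc46a1* and chr11:81690269-81690568, minus strand for *Tfrc*. Capitals mark ACGTG or GCGTG on either strand, the core letters to which hypoxia-inducible factors bind, so that a match on the other strand reads CACGT or CACGC.
Slc40a1: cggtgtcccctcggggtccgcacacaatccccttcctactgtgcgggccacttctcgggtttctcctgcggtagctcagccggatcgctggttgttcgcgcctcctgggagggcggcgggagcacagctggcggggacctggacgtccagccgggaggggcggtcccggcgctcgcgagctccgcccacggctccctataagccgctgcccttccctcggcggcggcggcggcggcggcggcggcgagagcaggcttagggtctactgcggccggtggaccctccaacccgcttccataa
Epas1: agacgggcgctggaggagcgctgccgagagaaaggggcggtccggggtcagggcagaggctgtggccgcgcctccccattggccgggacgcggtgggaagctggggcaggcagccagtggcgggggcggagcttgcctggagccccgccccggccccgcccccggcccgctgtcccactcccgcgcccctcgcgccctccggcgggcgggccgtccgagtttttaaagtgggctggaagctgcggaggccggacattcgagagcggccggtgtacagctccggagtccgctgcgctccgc
Slc46a1: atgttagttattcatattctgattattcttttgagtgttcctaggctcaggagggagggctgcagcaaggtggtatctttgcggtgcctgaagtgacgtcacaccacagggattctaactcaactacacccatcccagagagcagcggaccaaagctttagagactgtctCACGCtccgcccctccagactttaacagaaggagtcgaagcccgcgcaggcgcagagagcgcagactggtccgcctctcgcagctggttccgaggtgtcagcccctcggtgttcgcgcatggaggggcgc
Tfrc: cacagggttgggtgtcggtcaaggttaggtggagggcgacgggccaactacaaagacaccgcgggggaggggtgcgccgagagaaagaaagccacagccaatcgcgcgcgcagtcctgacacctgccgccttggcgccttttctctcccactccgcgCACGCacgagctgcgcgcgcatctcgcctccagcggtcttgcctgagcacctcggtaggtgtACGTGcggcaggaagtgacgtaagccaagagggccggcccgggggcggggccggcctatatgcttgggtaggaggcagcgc
The core was found once in the *Slc46a1* and at 2 places in the *Tfrc* promoter, and it was not found in these windows of *Slc40a1* and *Epas1*. Of the 7 genes with a promoter in the table, 5 held it, and so did 41.6% of 33469 rat promoters of the same length. TGACNNNGC, the core of the antioxidant response element, was in 0 of the 7 and in 12.1% of all promoters. *Fth1*, *Ftl1* and *Hfe* are not shown.

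The folate transporter gene had the widest spread. *Slc46a1* had log2 values of 5.58, 6.45 and 9.07 in HFD-sitagliptin replicates 1, 2 and 3, and of 7.85, 9.28 and 9.14 in HFD replicates 1, 2 and 3. HFD-sitagliptin replicates 1 and 2 lay below all HFD arrays, and replicate 3 lay among them, so the groups overlap. The means were 7.04 ± 1.82 (SD, n = 3) and 8.76 ± 0.79 (SD, n = 3), 3.30-fold lower in pups of HFD-sitagliptin dams. The log2 fold change of -1.72 had a standard error of 0.91 and a 95% interval of -3.90 to 0.46 (limma adjusted p = 0.718). Blocked by replicate number, *Slc46a1* passed the threshold (limma adjusted p = 0.65), as did 2.62% of all genes. The differences within replicates 1, 2 and 3 were -2.27, -2.82 and -0.07. Leaving out HFD-sitagliptin replicate 3 gave -2.74, past the threshold. Leaving out HFD-sitagliptin replicate 1, the array with the lowest brush border mean, gave -0.99, not past it. The range of 3.70 over the arrays was at percentile 99.1 of all genes. The 2 arrays lowest in *Slc46a1* were also the 2 lowest in the proximal markers.

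The genes whose centred profiles over the 6 arrays were nearest to that of *Slc46a1* were *Slc19a3*, a thiamine transporter gene, *Treh*, the trehalase gene of the brush border, and *Rab30*, a small GTPase gene. Their root mean square differences from it were 0.39, 0.48 and 0.51, where *Slc46a1* itself deviated from its own mean by 1.43. *Slc19a3* was at 4.19, 5.40 and 7.20 in the HFD-sitagliptin arrays and at 6.54, 7.29 and 7.04 in the HFD arrays. It was thus, as *Slc46a1*, low in HFD-sitagliptin replicates 1 and 2 only. *Treh* belongs to the proximal marker list.

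**Figure D1:**
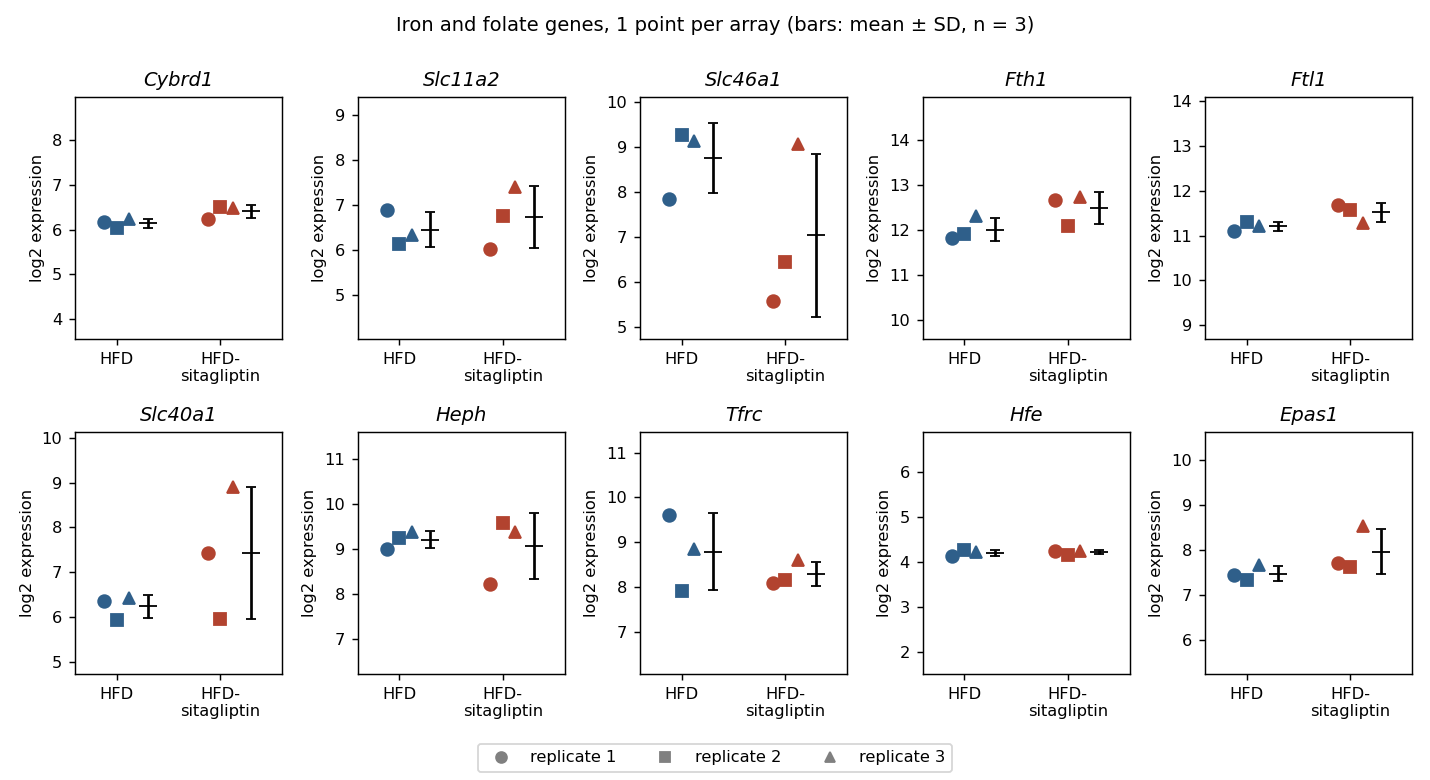
Log2 expression (y axis) of the 10 genes on each of the 6 arrays, HFD in blue and HFD-sitagliptin in red, with the symbol giving the replicate number and the bars the mean ± SD of 3 arrays. All panels span the same number of log2 units. *Slc46a1* and *Slc40a1* spread the most, over 3.70 and 2.97, and *Hfe* the least, over 0.14.

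The iron exporter gene was highest by far in a single array. *Slc40a1* was at 7.42, 5.96 and 8.91 in HFD-sitagliptin replicates 1, 2 and 3, and at 6.35, 5.94 and 6.42 in HFD replicates 1, 2 and 3. HFD-sitagliptin replicate 3 was 5.59-fold above the highest HFD array, replicate 1 also lay above all of them, and replicate 2 lay beside the lowest. The means were 7.43 ± 1.48 and 6.24 ± 0.26 (SD, n = 3 each), 2.28-fold higher in pups of HFD-sitagliptin dams. The log2 fold change of 1.19 had a standard error of 0.69 and a 95% interval of -0.47 to 2.85 (limma adjusted p = 0.718). It came to 0.45 when HFD-sitagliptin replicate 3 was left out, and to 1.93, past the threshold, when replicate 2 of that group was. Leaving out both replicate 2 arrays, which are high in ileum genes, gave 1.78, also past it. The SD of the HFD-sitagliptin arrays was 5.66 times that of the HFD arrays. The differences within replicates 1, 2 and 3 were 1.07, 0.02 and 2.48. HFD-sitagliptin replicate 3 had the highest mean of the proximal list, and HFD-sitagliptin replicate 1, second in *Slc40a1*, had the lowest. The macrophage markers averaged 5.94, 5.66 and 5.46 in HFD-sitagliptin replicates 1, 2 and 3, above the HFD arrays, and their part in the *Slc40a1* and ferritin values was not tested.

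*Heph*, the ferroxidase that works with ferroportin, did not follow *Slc40a1*. It was at 8.22, 9.58 and 9.37 in the HFD-sitagliptin arrays and at 8.99, 9.24 and 9.37 in the HFD arrays. HFD-sitagliptin replicate 1 stood 0.77 below the next array, and the other 5 lay within 0.59. The log2 fold change was -0.14 (standard error 0.36, limma adjusted p = 0.906), but 0.28 if HFD-sitagliptin replicate 1 was left out, so its sign rests on that array.

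Both ferritin chains had positive differences that were not past the threshold. *Fth1* was at 12.66, 12.08 and 12.73 in HFD-sitagliptin replicates 1, 2 and 3 and at 11.81, 11.91 and 12.30 in HFD replicates 1, 2 and 3. HFD-sitagliptin replicates 1 and 3 were above all HFD arrays, and replicate 2 was between HFD replicates 2 and 3. The log2 fold change was 0.48 with a standard error of 0.23 and a 95% interval of -0.06 to 1.02 (limma adjusted p = 0.718). The second transcript cluster of *Fth1* gave 0.41 (standard error 0.24), with values of 11.50 to 12.13 in HFD-sitagliptin and of 11.09 to 11.74 in HFD. *Fth1* was past the threshold without HFD-sitagliptin replicate 2 (0.69), without HFD replicate 3 (0.63) and without both replicate 2 arrays (0.64). *Ftl1*, the light chain, was at 11.69, 11.58 and 11.28 in the HFD-sitagliptin arrays and at 11.10, 11.31 and 11.22 in the HFD arrays. Its order was another one, with HFD-sitagliptin replicate 3 below HFD replicate 2. The difference was 0.31 on the log2 scale with a standard error of 0.15 and a 95% interval of -0.05 to 0.67 (limma adjusted p = 0.718). The differences within replicates 1, 2 and 3 were 0.85, 0.17 and 0.42 for *Fth1* and 0.59, 0.27 and 0.06 for *Ftl1*. Ferritin genes have many processed copies in mammalian genomes, and which of them the probes also match is not known here.

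The iron reductase gene *Cybrd1* varied little. It was at 6.24, 6.49 and 6.49 in the HFD-sitagliptin arrays and at 6.16, 6.03 and 6.23 in the HFD arrays. All HFD-sitagliptin arrays were higher, but replicate 1 was barely above HFD replicate 3. The means were 6.41 ± 0.14 and 6.14 ± 0.10 (SD, n = 3 each), 1.20-fold apart. The 95% interval of the difference ran from -0.05 to 0.58 (limma adjusted p = 0.718), so its upper end lay just under the log2 value of a 1.5-fold change. The genes with the nearest profiles were *Dcaf12l2*, *Mbd3*, which encodes a methyl-CpG binding domain protein, and *Jaml*, a junction adhesion molecule gene, each within 0.05, where *Cybrd1* itself deviated by 0.17.

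Of the iron importer gene *Slc11a2*, the HFD-sitagliptin arrays had values of 6.03, 6.76 and 7.40 and the HFD arrays of 6.89, 6.14 and 6.32. The HFD-sitagliptin group held both the highest array, replicate 3, and the lowest, replicate 1. Its log2 fold change was 0.28 with a standard error of 0.37 and a 95% interval of -0.62 to 1.18 (limma adjusted p = 0.82). It was -0.05 without HFD-sitagliptin replicate 3, and leaving out replicate 1 of that group gave 0.63. With both replicate 1 arrays left out, it was 0.85 and past the threshold. Nearest to it in profile were *Gramd2a*, *Hsph1*, a chaperone gene of the heat shock family, and *Rnpep*, an aminopeptidase gene, at 0.18, 0.19 and 0.21, where *Slc11a2* itself deviated by 0.48.

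**Figure D2:**
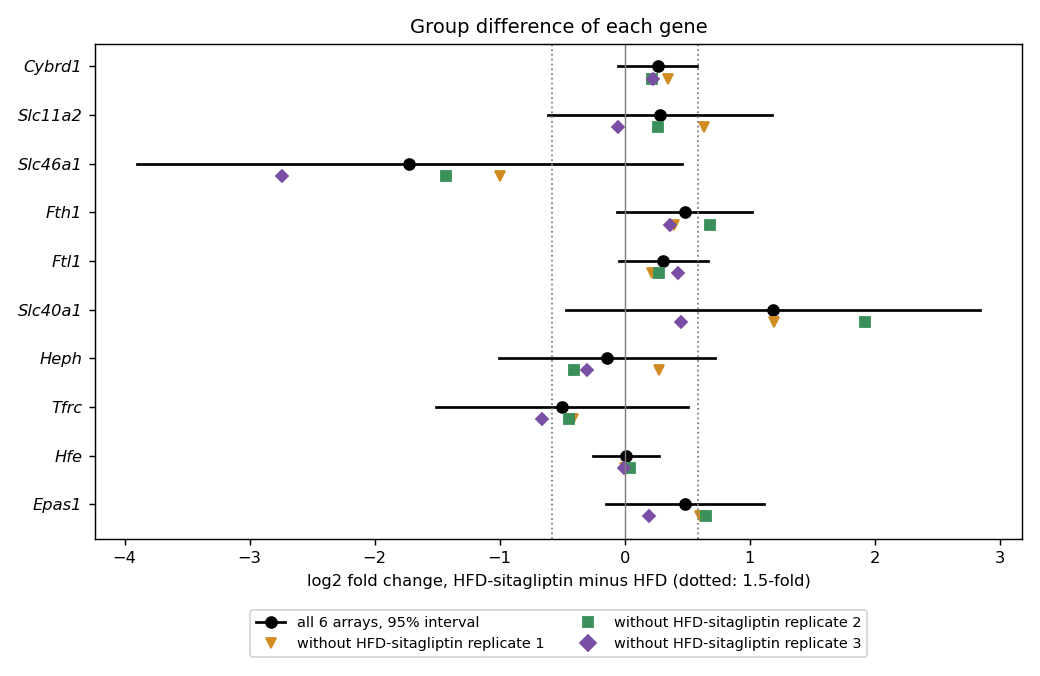
Log2 fold change, HFD-sitagliptin minus HFD (x axis), of each gene with its 95% interval over all 6 arrays (black), and its value with HFD-sitagliptin replicate 1, 2 or 3 left out (coloured). Every interval holds 0, and *Slc46a1* moved from -1.72 to -0.99 or -2.74 with 1 array left out.

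The transferrin receptor gene differed more among the HFD pups than between the group means. *Tfrc* was at 8.10, 8.16 and 8.60 in the HFD-sitagliptin arrays and at 9.61, 7.91 and 8.86 in HFD replicates 1, 2 and 3. The HFD arrays thus held both the highest and the lowest value, 3.25-fold apart, and their SD of 0.85 was at percentile 99.1 of all genes. The difference was -0.50 on the log2 scale with a standard error of 0.42 and a 95% interval of -1.51 to 0.50 (limma adjusted p = 0.739). It was -0.95 and past the threshold without HFD replicate 2 and -0.10 without HFD replicate 1. HFD replicate 1, the highest array in *Tfrc*, was the lowest in the hemoglobin chain genes *Hbb-b1* and *Hba-a3*, at 4.68 and 3.80 there and at 6.44 to 6.94 and 5.15 to 5.91 elsewhere. The 10 measured erythroid markers, 4 of them above background, averaged 3.58 in HFD replicate 1, 4.01 to 4.25 in the other HFD arrays and 4.21 to 4.32 in HFD-sitagliptin. The part of blood in the ferritin and *Tfrc* values was not tested.

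*Epas1* was at 7.71, 7.62 and 8.53 in HFD-sitagliptin replicates 1, 2 and 3 and at 7.43, 7.32 and 7.66 in HFD replicates 1, 2 and 3. HFD-sitagliptin replicates 1 and 3 were above all HFD arrays, and replicate 2 was just below HFD replicate 3. The log2 fold change was 0.48 with a standard error of 0.26 and a 95% interval of -0.15 to 1.11 (limma adjusted p = 0.718). It was 0.19 without HFD-sitagliptin replicate 3. The differences within replicates 1, 2 and 3 were 0.28, 0.30 and 0.87. *Epas1*, *Slc40a1* and *Fth1* shared their first 3 arrays in order, HFD-sitagliptin replicate 3, HFD-sitagliptin replicate 1 and HFD replicate 3. *Ftl1* had another order. Of the 6 measured mRNAs known to carry an iron-responsive element, all of them among the 10 genes, 5 had a positive difference and *Tfrc*, in which the elements lie after the coding part, as in *Slc11a2*, a negative one. Of all genes, 51.9% had a positive difference. That of *Slc11a2* was -0.05 without HFD-sitagliptin replicate 3. *Hfe* was at 4.16 to 4.25 in HFD-sitagliptin and at 4.13 to 4.27 in HFD, below 4.44, the 95th percentile of 1185 olfactory receptor genes. That class is little expressed in intestine, so *Hfe* is not told from background, and the other 9 genes were above it.

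Of the 10 genes, 4 were highest in HFD-sitagliptin replicate 3, as were 11% of all genes, and 3 were lowest in HFD-sitagliptin replicate 1, as were 22.1%. The SD was larger in HFD-sitagliptin than in HFD for 8 of the 10 and for 53.6% of all genes. A range of over 1 was seen for 6 of the 10 and for 22.2% of all genes. These counts are descriptions, since the genes share the same arrays.

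**Figure D3:**
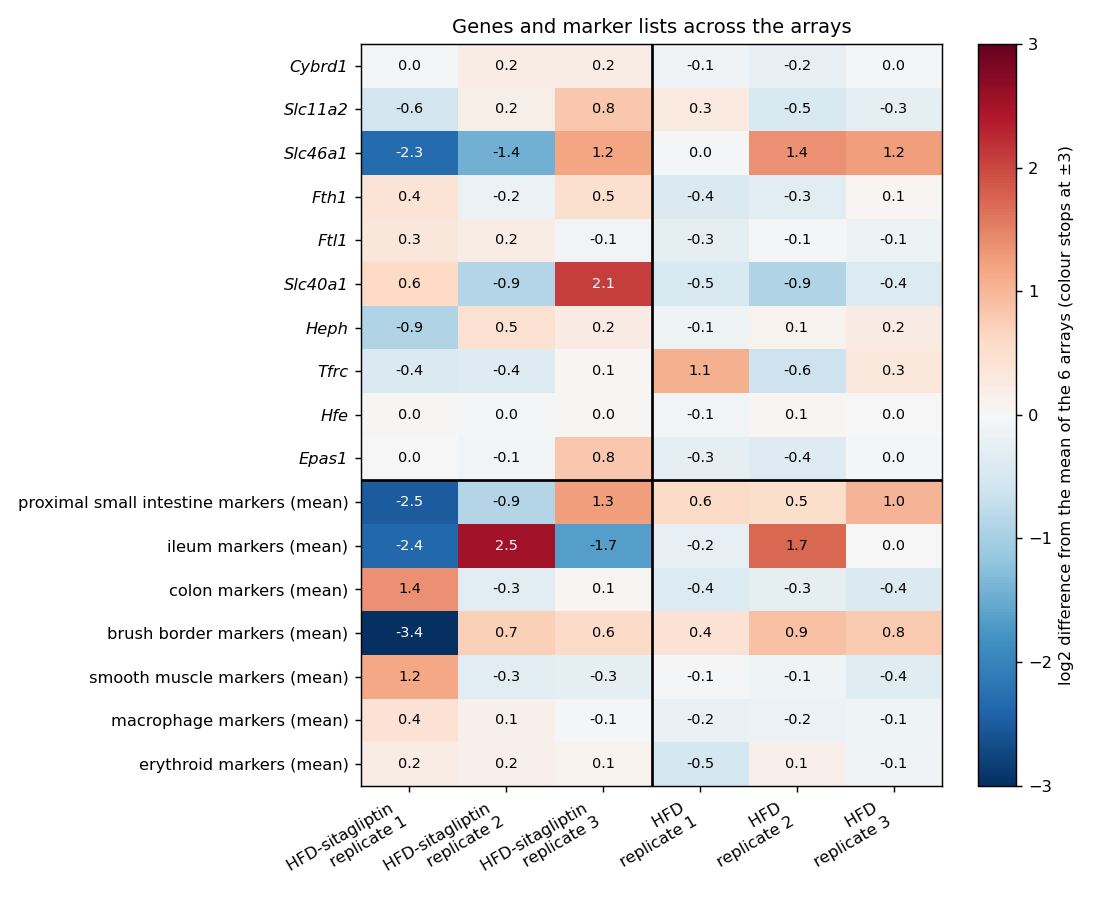
Difference of each array (columns) from the mean of the 6 arrays on the log2 scale, for the 10 genes and, under the line, for the mean of each marker list. *Slc46a1* and the proximal list are low in HFD-sitagliptin replicates 1 and 2 (-2.32 and -1.44 for *Slc46a1*, -2.49 and -0.88 for the list), and *Slc40a1* is high in replicate 3 (2.07).

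The other iron genes passed the threshold about as often as all genes did, 2.22% against 2.01%. Of 45 other measured iron genes, 0 rose, 1 fell and 44 did not pass the threshold, with a median log2 fold change of -0.01. The gene past it was *Slc25a28*, a mitochondrial iron importer gene (mitoferrin 2), with a log2 fold change of -0.59 and a standard error of 0.17 (limma adjusted p = 0.718). It was at 6.28, 6.53 and 6.83 in the HFD-sitagliptin arrays and at 7.27, 7.07 and 7.08 in the HFD arrays, without overlap. It was -0.46 and not past the threshold without HFD-sitagliptin replicate 1, and likewise -0.53 without HFD replicate 1. It also lost the threshold with array weights (-0.51), quantile normalization (-0.55) and without both replicate 1 (-0.40) or both replicate 2 arrays (-0.62). *Ppox*, of heme synthesis (-0.49), *Hmox2*, the constitutive heme oxygenase (-0.29), and *Aco1*, which encodes iron regulatory protein 1 (-0.39), had an unadjusted p under 0.05 in limma and changes under 1.5-fold. *Aco1* was at 8.71, 9.10 and 8.90 in the HFD-sitagliptin arrays and at 9.11, 9.41 and 9.35 in the HFD arrays, all of them higher. An unadjusted p under 0.05 was thus seen in limma for 4 of the 45, and for 1040 of all 18166 genes. All 4 of these genes were lower in every HFD-sitagliptin array than in every HFD array. They were 8.89% of the list, where 5.54% of all genes were lower without overlap (11.5% in either direction).

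Among 30 other measured genes of folate uptake and one-carbon enzymes, 1 rose, 0 fell and 29 did not pass the threshold, with a median of -0.06. Past the threshold were thus 3.33% of the list and 2.01% of all genes. The higher one was *Abcc3*, an exporter that also carries folates, with a log2 fold change of 0.84 and a standard error of 0.33 (limma adjusted p = 0.718). It was at 9.08, 8.46 and 7.83 in the HFD-sitagliptin arrays and at 7.46, 7.97 and 7.44 in the HFD arrays, so HFD-sitagliptin replicate 3 lay below HFD replicate 2. It lost the threshold on leaving out replicate 1 (0.52) or 2 (0.84) of HFD-sitagliptin, or replicate 1 (0.75) or 3 (0.74) of HFD, and in the methods' t-test. *Cubn*, the vitamin B12 receptor gene cubilin, also in the ileum list, was at 3.91, 9.02 and 7.04 in the HFD-sitagliptin arrays and at 8.32, 10.08 and 9.35 in the HFD arrays. Its log2 fold change of -2.59 (standard error 1.24) passed the threshold when blocked by replicate number, or without HFD-sitagliptin replicate 2 (-3.78), and not in the unblocked fit of all arrays. *Shmt1*, the cytosolic serine hydroxymethyltransferase, had a log2 fold change of -0.89 and *Mtfmt*, a mitochondrial formyltransferase gene, one of -0.27, neither past the threshold.

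Of 22 other genes of the hypoxia-inducible factors, 0 were past the threshold. An unadjusted p under 0.05 was seen for 0 of them in limma and for 1 in the methods' t-test, and 5 had groups without overlap, 2 higher and 3 lower (22.7% of the list, against 11.5% of all genes). *P4ha1*, a prolyl hydroxylase of collagen (0.83), and *Adm*, the adrenomedullin gene (0.52), had positive values, and *Ndrg1* (-0.47) and *Bnip3l*, of mitophagy (-0.44), negative ones. *P4ha1* passed the threshold when blocked by replicate number, or without HFD-sitagliptin replicate 3 (1.11). Its values were 7.85, 6.44 and 6.33 in the HFD-sitagliptin arrays and 6.19, 5.84 and 6.10 in the HFD arrays, with HFD-sitagliptin replicate 1 far above the rest. Of 15 other metal transport genes, 0 were past the threshold and 1, the magnesium transporter gene *Cnnm4*, had an unadjusted p under 0.05, with a log2 fold change of 0.51. *Atp7b*, a copper transporter (-0.41), and *Slc39a5*, a zinc importer of the blood side (-0.54), were not past it. *Slc39a4*, the zinc importer of the brush border, was at 7.01, 8.43 and 8.09 in the HFD-sitagliptin arrays and at 7.18, 7.30 and 7.31 in the HFD arrays. The 6 arrays gave a log2 fold change of 0.58, and leaving out HFD-sitagliptin replicate 1 gave 0.997, past the threshold.

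**Figure D4:**
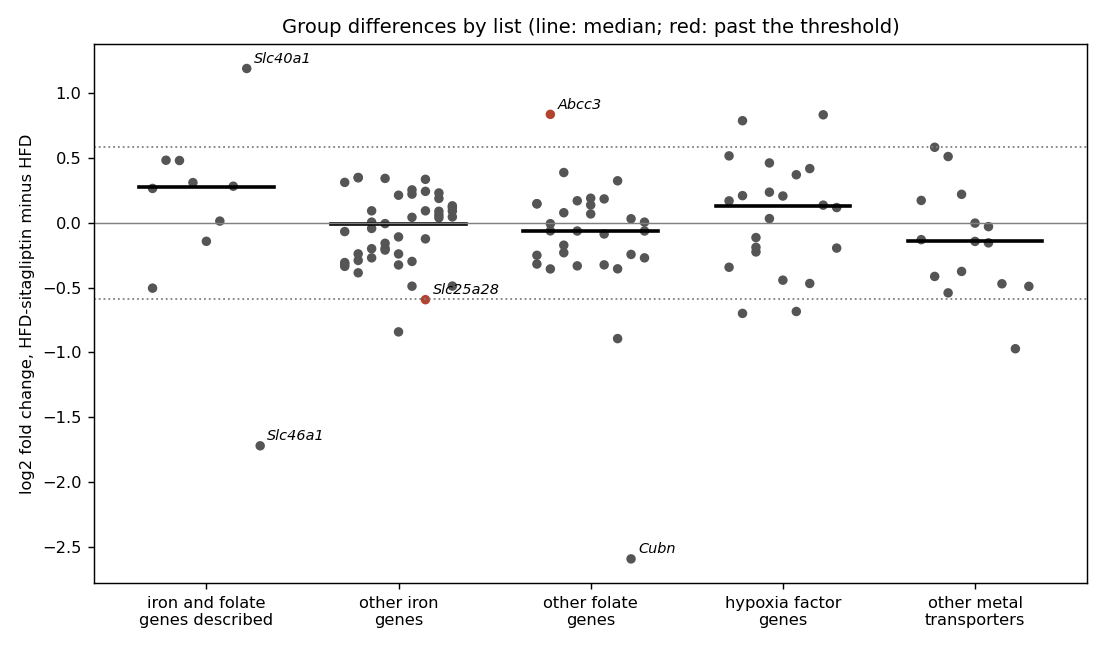
Log2 fold change, HFD-sitagliptin minus HFD (y axis), of every measured gene in 5 lists, with medians as lines, the 1.5-fold bounds dotted and genes past the threshold in red. Of the genes shown, *Slc25a28* (-0.59) and *Abcc3* (0.84) are past it, and *Cubn* (-2.59) has the widest difference.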

How the data were processed

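Total RNA of 6 intestines was hybridized to Affymetrix Rat Gene 2.0 ST arrays. The authors normalized the scans in GeneSpring by an algorithm not given in the sources used here, and deposited log2 values, 1 per transcript cluster and array, which were used as deposited. Their range is that of log2 values. Of 36685 clusters, 18511 carry exactly 1 symbol in the platform's gene table. For a gene with several clusters the one with the highest mean was taken, which left 18166 genes, with no filter on low values. Arrays have no depth, and their number limits the precision.

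limma 3.58.1 under R 4.3.3 gave moderated tests between the groups, and p values were adjusted over all genes by Benjamini-Hochberg. The fit was tested on simulated data. Over all genes, 128 were higher and 237 lower past the study's threshold, 81 and 390 with arrays centred on their medians, and no adjusted p was under 0.05 (lowest 0.718, 1040 genes with an unadjusted p under 0.05). Correlations of the deviations from the group means were 0.146, 0.284 and 0.148 for arrays of the same replicate number and -0.24 to 0.02 for others, so a fit with that number as a block was also run. The groups had different dams, so equal numbers do not mark a shared litter, and the block rests on these correlations in the same data.

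The genes and lists were chosen with earlier results of these data known, and 222 of 259 listed names were matched. The text names all 10 genes. In each list of other iron, folate, hypoxia factor and metal transport genes, it names those past the threshold and the 4 with the smallest p. It also names the 3 nearest profiles of *Slc46a1*, *Cybrd1* and *Slc11a2*, and some of the markers with the widest range in their lists. *Spi1*, *Itgam*, *Slc2a2*, *Myo7b*, *Mep1a*, *Amy2a3* and *Prss1* were picked after their values were seen. The liver and pancreas markers had means of 4.08 to 5.96 and of 4.09 to 4.31 over the arrays. Of the 11 pancreas markers, 2, *Amy2a3* and *Prss1*, were lower past the threshold, as were 1.3% of all genes. Only 4 of the 11 were above background, and *Prss1* was not told from it. Without HFD replicate 1, 0 of the 11 were past the threshold. P values measure the spread between these arrays, in which pup and part of the intestine cannot be told apart.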

Additional observations from a re-analysis of the deposited data

How the results depend on the processing

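No gene of the 10 was past the threshold with limma's trend and robust moderation, array weights, quantile or median normalization, dim genes left out, the mean of a gene's clusters, all clusters, the methods' t-test, a fold change of at least 2 or no fold threshold. In the fit blocked by replicate number, 1 was, *Slc46a1*. There were 2 without both replicate 2 arrays, 1 without both replicate 1 arrays, 1 without both replicate 3 arrays, and 0 to 2 on leaving out any single array. Leaving out both replicate 1 or both replicate 3 arrays was chosen after seeing the data.

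Over all 18166 genes the count was 365, and 158 in the methods' t-test. It was 57 at a fold change of at least 2, 1040 without a fold threshold and 1379 over all clusters. With the replicate block it was 476. It was 227 without both replicate 1 arrays, 341 without both replicate 2 arrays and 738 without both replicate 3 arrays. With 1 array left out it was 239 to 880 (239 without HFD replicate 1, 880 without HFD-sitagliptin replicate 3). For the other iron genes, 1 with all arrays, the count was 0 with array weights, quantile normalization, a fold change of at least 2, or without both replicate 1 or both replicate 2 arrays, 4 without a fold threshold, 2 without both replicate 3 arrays and 0 to 3 with 1 array left out. For the other folate genes, also 1, it was 2 with the replicate block, 0 in the methods' t-test, at a fold change of at least 2 or without both replicate 1 or both replicate 2 arrays, and 0 to 3 with 1 array left out. For the hypoxia factor genes, 0 with all arrays, it was 1 with the replicate block, 2 without both replicate 3 arrays and 0 to 4 with 1 array left out. Under the replicate block, the markers past the threshold went from 2 to 4 for the proximal small intestine, from 0 to 2 for the ileum and from 0 to 2 for the liver, and the counts of the remaining lists were as without it. In the methods' t-test they were 0 for the proximal small intestine, 2 for macrophages and 1 for the pancreas. With 1 array left out, they were 0 to 6, 1 to 5 and 0 to 2 in turn. For the ileum and the liver they were then 0 to 3.

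Signs turned for 3 genes. *Slc11a2* was at -0.053 to 0.63 with 1 array left out (-0.053 without HFD-sitagliptin replicate 3) and at -0.12 without both replicate 3 arrays. *Heph* was at 0.057 with array weights, -0.41 to 0.28 with 1 array left out (0.28 without HFD-sitagliptin replicate 1) and 0.17 without both replicate 1 arrays. *Hfe*, near background, was at -0.0055 with array weights, -0.036 with quantile normalization, -0.050 with median centring, -0.037 without both replicate 1 arrays and -0.027 to 0.045 with 1 array left out (-0.0049 without HFD-sitagliptin replicate 3). The cause was not tested. With 3 arrays a group, the interval of *Slc46a1* runs from -3.90 to 0.46 and holds both large decreases and no difference.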
